A study of Mus musculus with 18 samples.

Results

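Lysosomes digest proteins, lipids and sugars in an acid interior, and 3 families of genes named for that work were followed in C2C12 mouse muscle cells: subunits of the vacuolar proton pump (V-ATPase), cathepsins and lysosome-associated membrane proteins (LAMPs). The genes were taken by name, as every probe set with a single gene symbol beginning Atp6v0 or Atp6v1, of the form Cts plus letters or digits, or Lamp1 to Lamp5, with the brightest probe set kept for each symbol. That gave 49 genes of the 22180 measured, from 52 probe sets: 22 with V-ATPase names, 23 cathepsins and 4 LAMPs. The set was chosen for 2 of its genes, Atp6v0d2, which was higher with Mef2c shRNA, and Ctsw, which was lower with both shRNAs. These values of Atp6v0d2 and Ctsw chose the set, so they are given below as a description with no test, and the other 47 genes, which entered by name alone, are the tested members.

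C2C12 is a mouse myoblast line that fuses into multinucleated myotubes when serum is lowered. All cells were grown in 20% foetal bovine serum and moved to 2% horse serum. At 36 h they were infected with lentivirus carrying an shRNA, and RNA was collected 48 h later. There were 3 groups of 6 arrays. The hairpin was a scramble in the control group and was directed in the others at Nup210, a protein of the nuclear pore, or at Mef2c, a transcription factor of the muscle programme. All groups thus share infection and differentiation. How many hairpins were used per gene, and their sequences, is not stated in these sources. Whether replicate arrays stand for separate cultures is not stated by the labels either, so p-values measure the spread between arrays, which may be technical.

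Array medians lay between 5.48 and 5.57 on the log2 scale, and arrays of a group correlated at 0.991 to 0.995 over all genes. The array number limits the precision: the median standard error of a difference was 0.08. The 95th percentile of 1390 olfactory and vomeronasal receptor genes, 5.47, serves throughout as a guide to background, and 29 of the 49 members had a mean above it. Mef2c itself was at 10.39 ± 0.16 (SD, n = 6) in control arrays and 7.91 ± 0.21 in arrays labelled Mef2c shRNA, 17.9% of control (limma adjusted p = 2.8e-11). The single Nup210 probe set lay close to background, at 5.75 ± 0.093 in control arrays and 5.65 ± 0.11 in arrays labelled Nup210 shRNA (adjusted p = 0.402), so it does not set those arrays apart from control, and they are named here by their label. The word knockdown below names both shRNA groups by label, and for Nup210 it does not say that its level fell. All 10 myotube markers and all 7 myoblast markers were above background. In arrays labelled Nup210 shRNA 4 myotube markers were lower than control and 0 were higher, Ckm among them (fell by 0.39 on the log2 scale). Of the 7 myoblast markers 2 were higher, Myf5 by 0.66 and Myod1 by 0.26, and 0 were lower. Pax7, Cdh15, Ncam1, Itga7 and Des differed by 0.16, -0.08, 0.01, -0.1 and 0.02 and were not called. With Mef2c shRNA 2 myotube markers were lower, including Myh3 (fell by 0.39), which was also lower with Nup210 shRNA (by 0.20). Of all genes 3.05% were called higher and 5.11% lower with Nup210 shRNA, and 4.34% and 6.42% with Mef2c shRNA. Nothing is read from the marker counts. The part of these marker shifts in the results below was not tested, and in bulk RNA fewer cells of a type and less RNA per cell cannot be told apart.

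The V-ATPase is a rotary pump that spends ATP to acidify lysosomes and other compartments. Its V1 sector lies in the cytosol and hydrolyses ATP (the catalytic A subunit and the B subunit, with C, D, E, F, G and H), and its V0 sector lies in the membrane and carries protons (a, c, d and e subunits). Cathepsins are the proteases that work in that acid: most are cysteine proteases, Ctsd and Ctse are aspartic, and Ctsa and Ctsg are serine enzymes. LAMP1 and LAMP2 are heavily glycosylated proteins that line the lysosomal membrane. Many genes of this kind are known targets of the MiT/TFE factors, such as TFEB, which bind a palindromic promoter element called the CLEAR element, a longer form of the E-box CACGTG.

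The promoters were searched for the core of that element, TCACGTGA, which contains CACGTG and reads the same on both strands. RefSeq's promoter table (build GRCm38.p6, 300 bases from 250 before to 50 after each start) held 42 promoters of 39 of the 49 genes. TCACGTGA was present in 5 of the 42 (11.9%) and in 0.974% of all 32851 promoters, and CACGTG in 10 of the 42 (23.8%) and in 7.15% of all. The stretches that hold TCACGTGA are shown for all 5 genes. Atp6v0d1, Atp6v1a and Ctsa are among the members higher with Mef2c shRNA, and Atp6v0e and Ctsd are not. In that comparison 5 of the 47 tested members and 4.34% of all genes were called higher. Nothing is read from this overlap, and a link between the motif and the shRNA was not tested. Atp6v0e2 and Ctsf, also higher with Mef2c shRNA, lacked TCACGTGA in the promoters searched, and that of Ctsf held CACGTG. Each stretch is written 5′ to 3′ along the transcribed strand, with the motif in capitals, and positions count from the start base as 0.
Atp6v0d1, chr8:105566045-105566108, minus strand, motif from -4: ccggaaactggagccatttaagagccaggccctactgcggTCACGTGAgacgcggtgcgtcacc
Atp6v1a, chr16:44139344-44139431, minus strand, motif from -132: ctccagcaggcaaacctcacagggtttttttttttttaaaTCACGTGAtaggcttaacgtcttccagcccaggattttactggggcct
Ctsa, chr2:164833720-164833792, plus strand, first of 2 motifs from -13: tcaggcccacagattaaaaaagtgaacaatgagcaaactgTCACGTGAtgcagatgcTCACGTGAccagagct
Ctsd, chr7:142387879-142387966, minus strand, motif from -99: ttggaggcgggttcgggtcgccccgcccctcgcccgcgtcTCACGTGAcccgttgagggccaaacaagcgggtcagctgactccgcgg
Atp6v0e, chr17:26676358-26676415, plus strand, motif from 2: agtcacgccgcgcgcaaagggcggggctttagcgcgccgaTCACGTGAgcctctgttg
The Ctsa promoter shown held the motif in 2 copies, and the other Ctsa promoter listed held none. In Atp6v1a and Ctsd the motif lay further upstream. A match is a description of these letters and not a site or a cause.

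Atp6v0d2, the d2 isoform of the V0 sector, is known from osteoclasts, kidney and other acid-secreting cells. Its lowest, median and highest values were 4.73, 4.95 and 5.62 on the log2 scale in control arrays. In Nup210 shRNA arrays they were 4.80, 5.16 and 5.72. In Mef2c shRNA arrays they were 5.73, 6.37 and 6.67. All Mef2c shRNA arrays lay above all control arrays, and Nup210 shRNA arrays overlapped control. By the receptor guide 1 control, 2 Nup210 shRNA and 6 Mef2c shRNA arrays were above background. The Mef2c shRNA mean (6.32 ± 0.34, SD, n = 6) exceeded the control mean (5.08 ± 0.36) by 1.25 as measured. The control mean lay below the background guide, so that difference is not exact; with control arrays held at or above the guide the level was at least 1.78-fold higher. The Nup210 shRNA mean (5.24 ± 0.39) was also below the guide, 0.16 above the control mean, and this gap ran from 0.063 (without Nup210 array 3) to 0.267 (without control array 1) when single arrays were left out. Atp6v0d2 is known from osteoclasts, and of 10 osteoclast markers 7 were below background, Acp5, Dcstamp, Calcr and Tnfrsf11a among them. Itgb3 (7.58 in control), Nfatc1 (7.31) and, by its mean over all arrays, Ocstamp were above it. With limma 0 of the 10 were called in either comparison with control, and their mean level ranged from 5.5 to 5.68 in control and from 5.59 to 5.65 in Mef2c shRNA arrays. Of 12 macrophage markers 8 were below background, including Adgre1, Ptprc and Lyz2, and 0 of the 12 were called. Cd14, Cd68, C1qa and Fcer1g were above it, at 6.29, 6.26, 5.95 and 5.86 in control.

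Ctsw, cathepsin W, is a cysteine cathepsin known for its expression in cytotoxic T and natural killer cells. Its lowest, median and highest values were 7.0, 7.38 and 7.93 in control arrays. They were 6.18, 6.58 and 6.92 in Nup210 shRNA arrays and 6.10, 6.60 and 6.93 in Mef2c shRNA arrays. Every array of either knockdown lay below every control array, and the knockdown groups overlapped each other. The means were 7.48 ± 0.35 in control, 6.60 ± 0.29 in Nup210 shRNA and 6.59 ± 0.31 in Mef2c shRNA arrays (SD, n = 6 each). The differences from control were -0.88 and -0.89, which is 54.3% and 53.9% of the control level. Control arrays 4 and 6 were the highest, and without them the differences were -0.68 and -0.69. Of 10 markers of T and natural killer cells 8 were below background, including Cd3e, Gzma, Gzmb and Ncr1, and 0 of the 10 were called. Nkg7 and Prf1 were above it, at 5.95 and 5.73 in control. Because both comparisons use the same control arrays, the like values of the knockdowns are not independent of each other.

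**Figure D1:**
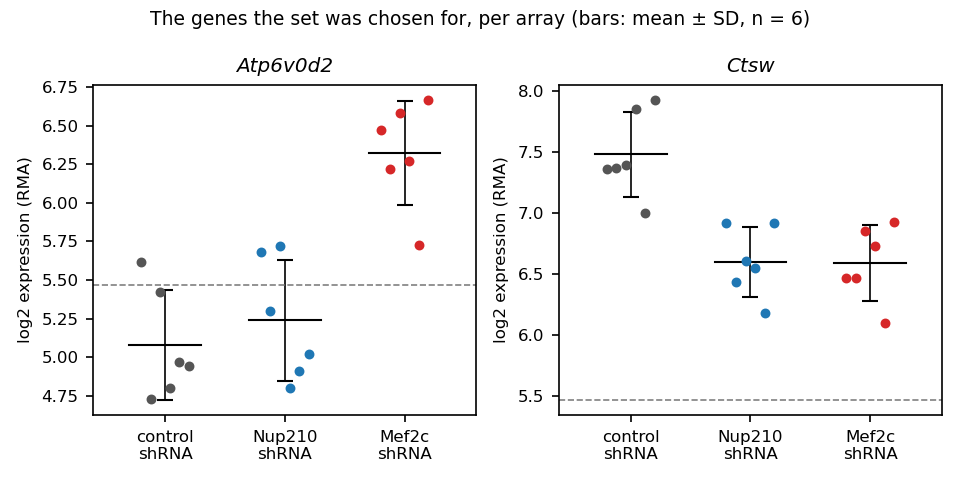
Log2 expression of Atp6v0d2 and Ctsw in each of the 18 arrays by shRNA group; points are arrays, bars are the mean ± SD, and the dashed line is the receptor background guide of 5.47. Atp6v0d2 lies between 5.73 and 6.67 with Mef2c shRNA, above all control arrays, and Ctsw lies below all control arrays in both knockdown groups.

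Among the 47 tested members, 2 were higher and 1 lower with Nup210 shRNA than with control, and 44 did not pass the test (limma, Benjamini-Hochberg adjusted p under 0.05 over all 22180 genes). In that comparison 3.05% of all genes were called higher and 5.11% lower. The set was chosen on this contrast, so nothing is read from the members' share. With Mef2c shRNA 5 were higher and 0 lower, against 4.34% and 6.42% of all genes, and again nothing is read from the share. At an unadjusted p under 0.05 in limma 9 members were higher and 3 lower with Mef2c shRNA, against 2579 and 2529 of all 22180 genes. With Nup210 shRNA 5 were higher and 4 lower at that threshold, against 2197 and 2294 of all genes. Between the knockdowns 2 members were higher and 8 lower with Nup210 shRNA than with Mef2c shRNA at the adjusted threshold, against 7.1% and 6.93% of all genes, where the same arrays enter as in the comparisons with control. For the 15 members above background that passed in none of the 3 comparisons, the 95% intervals of the differences from control lay within -0.22 to 0.27 (Nup210) and -0.23 to 0.34 (Mef2c). Atp6v1c2, Atp6v1d and Atp6v0a1 passed only between the knockdowns, and their Nup210 intervals against control reached lower. These ran from -0.64 to -0.12, from -0.3 to -0.05 and from -0.29 to -0.05. The members' median difference from control was 0.02 (Nup210) and 0.04 (Mef2c), and over all genes it was 0.02 in both comparisons. Groups that did not overlap were found in 2 tested members for Nup210 shRNA (Ctsf and Lamp1) and in 3 for Mef2c shRNA (Atp6v0d1, Ctsa and Ctsf), against 5.63% and 7.74% of all genes.

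**Figure D2:**
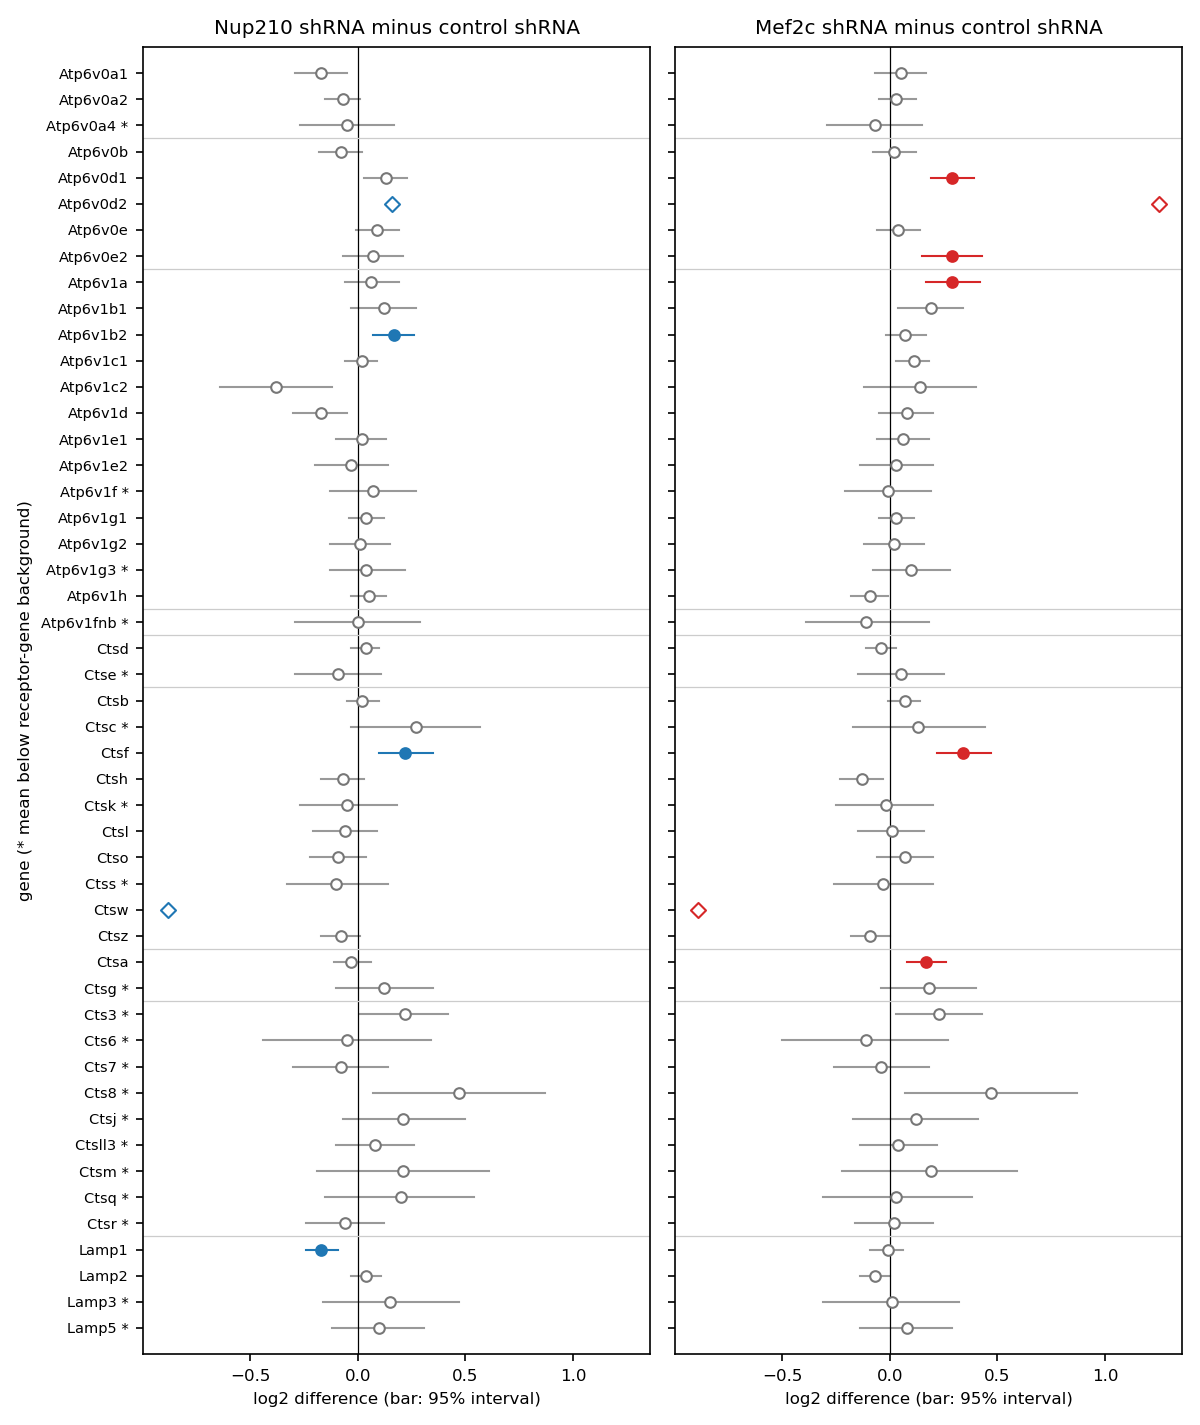
Log2 difference from control for each of the 49 members, for Nup210 shRNA and Mef2c shRNA; bars are 95% intervals from limma, filled points passed the test, an asterisk marks a mean below background, and the genes that chose the set are diamonds without intervals. Most intervals include 0, and the 5 members higher with Mef2c shRNA are Atp6v0d1, Atp6v0e2, Atp6v1a, Ctsa and Ctsf.

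In the membrane sector of the pump, Atp6v0d1, the widely expressed d1 isoform, had lowest, median and highest values of 9.99, 10.05 and 10.08 in control arrays. In Mef2c shRNA arrays they were 10.24, 10.33 and 10.43, all above control, and the difference was 0.29 ± 0.048 (SE, adjusted p = 0.000465). In Nup210 shRNA arrays they were 10, 10.16 and 10.30, a difference of 0.13 ± 0.048 that did not pass (adjusted p = 0.119). Atp6v0e2, an isoform of the small e subunit, ran from 7.87 through 8.04 to 8.17 in control and from 8.12 through 8.37 to 8.43 with Mef2c shRNA, so the groups overlapped while the difference of 0.29 ± 0.066 passed (adjusted p = 0.00674). In Nup210 shRNA arrays it was 8.10 ± 0.09 (SD, n = 6), with a difference of 0.07 (adjusted p = 0.629). Between the knockdowns both genes were lower with Nup210 shRNA, Atp6v0d1 by 0.16 (adjusted p = 0.0273) and Atp6v0e2 by 0.22 (adjusted p = 0.0303), calls that were lost when any of 5 or 7 single arrays, respectively, was left out (adjusted p up to 0.0694 and 0.0762). The sister isoform Atp6v0e differed by 0.09 and 0.04 and the proteolipid Atp6v0b by -0.08 and 0.02 (Nup210 and Mef2c shRNA), neither past the test. Of the a subunits matched by name, which place the pump in particular membranes, Atp6v0a1 was lower in Nup210 than in Mef2c shRNA arrays by 0.22 (adjusted p = 0.0115): the arrays ran from 8.92 through 9.14 to 9.33 against 9.23 through 9.38 to 9.40. Neither group passed the test against control (adjusted p = 0.0732 and 0.67), Atp6v0a2 differed by -0.07 and 0.03, and Atp6v0a4, the kidney isoform, was below background. Tcirg1, also of the pump but outside the name rule, differed by 0.04 and 0.07 (adjusted p = 0.655 and 0.342).

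In the V1 sector, Atp6v1a, the catalytic A subunit, had values of 10.32, 10.40 and 10.66 in control and 10.63, 10.69 and 10.88 with Mef2c shRNA. The difference was 0.29 ± 0.059 (adjusted p = 0.00309), with the highest control array above the lowest Mef2c shRNA array. With Nup210 shRNA it was 10.50 ± 0.062, a difference of 0.06 (adjusted p = 0.636), and lower than with Mef2c shRNA by 0.23 (adjusted p = 0.0128). Atp6v1b2, the widely expressed B subunit isoform, was higher with Nup210 shRNA, with 9.83, 9.86 and 9.91 in control and 9.89, 10.01 and 10.17 in Nup210 shRNA arrays (difference 0.17 ± 0.045, adjusted p = 0.0272). Its second probe set showed 0.00, the mean of its probe sets gave an adjusted p of 0.406, and it did not pass when Nup210 arrays 4 or 6 or control arrays 3 or 4 were left out. Atp6v1b1, the kidney and epithelial B isoform, was near background, with differences of 0.12 and 0.19 (adjusted p = 0.372 and 0.1).

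The C2, D and H subunits passed the test between the knockdowns, and none of them passed against control. Atp6v1c2, the C2 isoform, ran from 5.79 through 6.31 to 6.51 with Nup210 shRNA and from 6.52 through 6.70 to 6.98 with Mef2c shRNA, with no overlap and a difference of -0.52 ± 0.12 (69.8%, adjusted p = 0.00733). Its control arrays, at 6.38, 6.56 and 6.87, overlapped both knockdown groups. Atp6v1d, of the central stalk, was lower with Nup210 shRNA by 0.25 ± 0.06 than with Mef2c shRNA (adjusted p = 0.00747), with values of 9.72, 9.89 and 10.02 against 10.04, 10.11 and 10.25. Atp6v1h, the H subunit that regulates the pump, went the other way: 8.28, 8.34 and 8.42 with Nup210 shRNA and 8.16, 8.20 and 8.24 with Mef2c shRNA (difference 0.14 ± 0.04, adjusted p = 0.021). Against control the adjusted p lay between 0.0709 and 0.573 for these genes. Atp6v1c1, the C1 isoform, differed by 0.02 and 0.11 from control (adjusted p = 0.869 and 0.0671). Of the 20 tested V-ATPase subunits 1 was higher with Nup210 shRNA and 3 with Mef2c shRNA, and 0 were lower in either. Of all genes 3.05% and 4.34% were called higher and 5.11% and 6.42% lower. At an unadjusted p under 0.05 in limma 2 subunits were higher and 3 lower with Nup210 shRNA, and 5 higher and 1 lower with Mef2c shRNA. The median difference of the 20 was 0.03 and 0.06, with 13 of the 20 positive for Nup210 shRNA and 17 of the 20 for Mef2c shRNA. Over all 22180 genes 12230 and 12560 were positive. The symbol Atp6v1fnb matched by name only, for a gene beside Atp6v1f, and showed 0.00 and -0.11.

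Among the cathepsins 1 of 22 tested was higher with Nup210 shRNA, 2 were higher with Mef2c shRNA and 0 were lower in either. Of all genes 3.05% and 4.34% were called higher and 5.11% and 6.42% lower. At an unadjusted p under 0.05 in limma 3 cathepsins were higher and 0 lower with Nup210 shRNA, and 4 higher and 2 lower with Mef2c shRNA. Ctsb, Ctsd and Ctsl, the general proteases of the lysosome, with control means of 12.38, 12.09 and 11.24, differed from control by 0.02, 0.04 and -0.06 with Nup210 shRNA and by 0.07, -0.04 and 0.01 with Mef2c shRNA, none past the test. The 95% intervals for Ctsd were -0.03 to 0.10 and -0.11 to 0.03. Ctsf, a cysteine cathepsin with a cystatin-like prodomain, was the member higher in both: 6.78, 6.93 and 6.97 in control, 6.99, 7.08 and 7.33 with Nup210 shRNA and 7.21, 7.26 and 7.29 with Mef2c shRNA. Both knockdown groups lay above control, by 0.22 ± 0.059 (adjusted p = 0.0255) and 0.34 ± 0.059 (adjusted p = 0.000704). The difference with Nup210 shRNA did not pass when Nup210 arrays 2 or 5 or control arrays 4 or 6 were left out. Ctsa, the protective protein that stabilises lysosomal beta-galactosidase and neuraminidase, ran 10.44, 10.50 and 10.61 in control and 10.63, 10.67 and 10.73 with Mef2c shRNA (difference 0.17 ± 0.042, adjusted p = 0.0112). Every Nup210 shRNA array, 10.37 to 10.58, was below every Mef2c shRNA array, with a difference of -0.20 (adjusted p = 0.00285). Centring each array on its median took the Ctsa comparison with control to an adjusted p of 0.059.

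The remaining cysteine cathepsins did not pass either comparison with control. Ctsh differed by -0.07 and -0.13 (adjusted p = 0.458 and 0.103) and Ctsz by -0.08 and -0.09. Ctsc, which activates granule serine proteases, was below background, with 0.27 ± 0.14 and 0.13. Ctsk, the osteoclast collagenase, and Ctss, of antigen-presenting cells, were below background in control and differed by -0.05 and -0.10 with Nup210 shRNA and by -0.02 and -0.03 with Mef2c shRNA. The aspartic Ctse and serine Ctsg were below background, with -0.09 and 0.12 in Nup210 and 0.05 and 0.18 in Mef2c shRNA arrays. The 9 cathepsins of the placental cluster, most of which lie next to each other and are known from trophoblast, were all below background and 0 were called. Cts8 showed the highest of these differences, 0.47 in both knockdowns (adjusted p = 0.156 and 0.131), from a control mean of 3.18.

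Lamp1 and Lamp2, the main proteins of the lysosomal membrane, were both well above background. Lamp1 was lower with Nup210 shRNA, with 11.62, 11.67 and 11.71 in control and 11.44, 11.49 and 11.56 in Nup210 shRNA arrays, no overlap and a difference of -0.17 ± 0.037 (89.1%, adjusted p = 0.00714). With Mef2c shRNA it was 11.65 ± 0.059 and did not differ from control past the threshold (-0.01, adjusted p = 0.883), and Nup210 shRNA was lower than Mef2c shRNA by 0.15 (adjusted p = 0.0073). Lamp2 was higher in Nup210 than in Mef2c shRNA arrays by 0.10 ± 0.034 (adjusted p = 0.0476), a call lost when any of 15 of the 18 arrays was left out (adjusted p up to 0.11), and was at 10.84 ± 0.056, 10.74 ± 0.03 and, in control, 10.81 ± 0.022. Lamp3 and Lamp5 were below background, with differences of 0.15 and 0.10 for Nup210 and 0.01 and 0.08 for Mef2c shRNA. Without Nup210 arrays 2, 4 and 5, which limma's array quality weights rated lowest, none of the 3 Nup210 calls against control remained: the adjusted p was 0.202 for Atp6v1b2, 0.193 for Ctsf and 0.132 for Lamp1. Without the same arrays the differences between the knockdowns no longer passed for Atp6v0a1, Atp6v0e2, Atp6v1c2, Atp6v1d, Atp6v1h, Lamp1 and Lamp2, with adjusted p from 0.059 to 0.195.

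**Figure D3:**
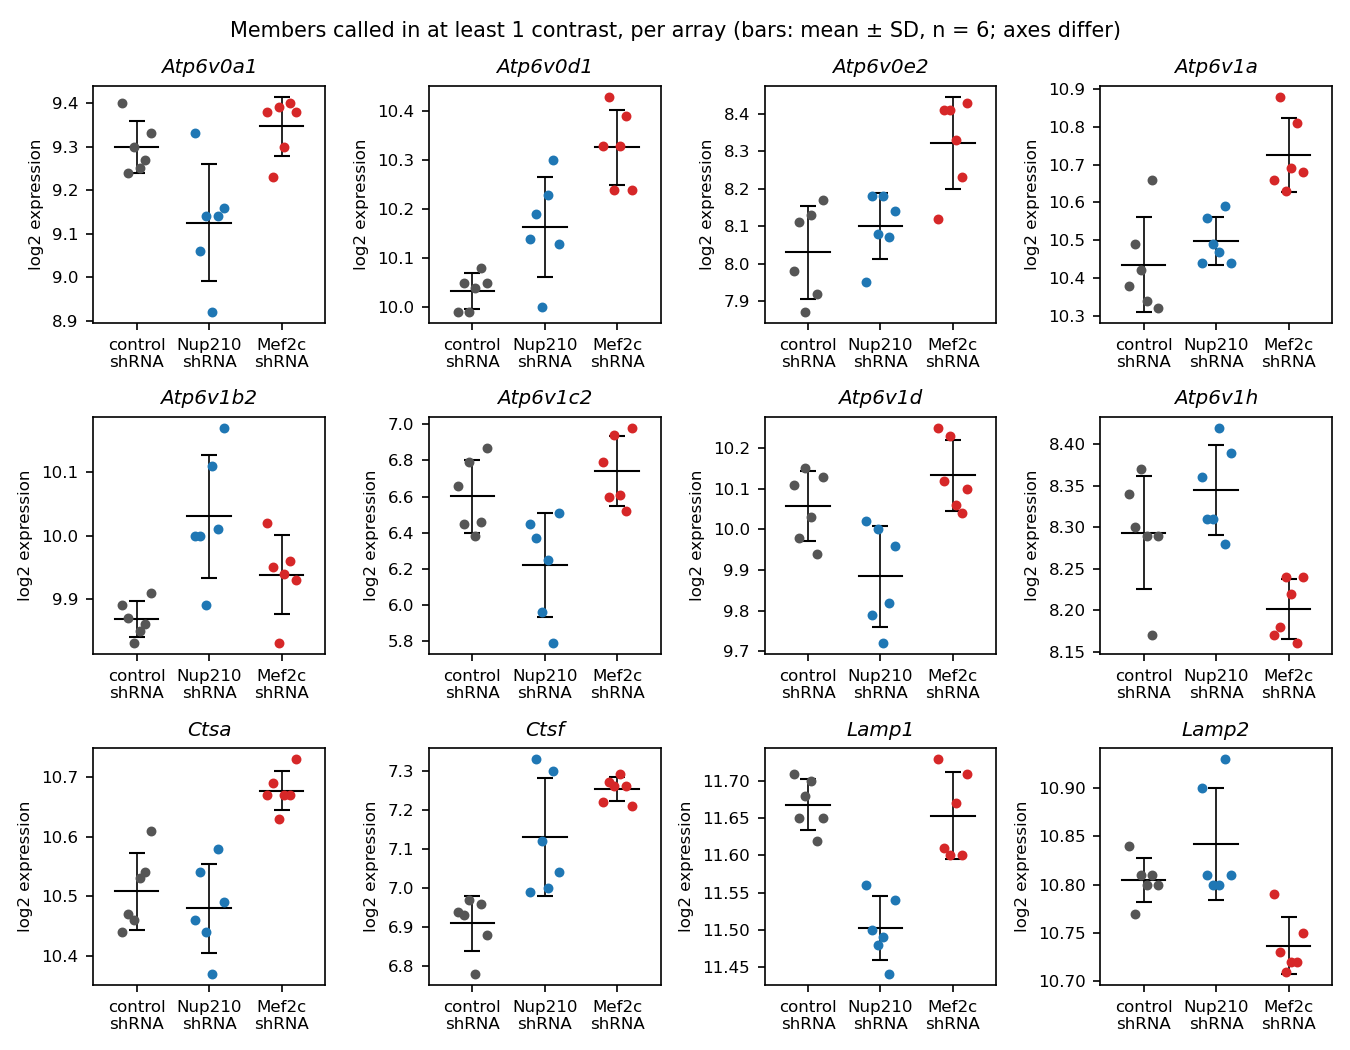
Log2 expression of the 12 members called in at least 1 of the 3 comparisons, in every array by shRNA group; points are arrays, bars are the mean ± SD (n = 6), and the axes differ between genes. Atp6v0d1, Ctsa and Ctsf lie wholly above control with Mef2c shRNA and Lamp1 wholly below it with Nup210 shRNA, while Atp6v0e2 and Atp6v1a overlap between control and Mef2c shRNA.

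Other genes of the same pathway were called in both directions. Of 14 V-ATPase partners and assembly factors, Ncoa7 was higher with Nup210 shRNA by 0.32 ± 0.059 (adjusted p = 0.00188), and with Mef2c shRNA Rogdi was higher by 0.21 (adjusted p = 0.0175) and Tmem199, an assembly factor, lower by 0.21 (adjusted p = 0.0285). The Tmem199 call was lost when Mef2c array 2 or 5 or control array 2, 4 or 6 was left out (adjusted p from 0.057 to 0.0676), and without control arrays 4 and 6 (0.167), and the Rogdi call with median centring (0.0588). Without Nup210 arrays 2, 4 and 5 the Ncoa7 call was lost (0.0626). Of 11 genes listed as cathepsin inhibitors, Serpinb6b was higher with Nup210 shRNA by 1.04 ± 0.10 (adjusted p = 3.29e-06), at 7.61 against 6.57. Whether Serpinb6b acts on a cathepsin was not tested, and Serpinb6a, also listed, differed by 0.01 with Nup210 shRNA (limma adjusted p = 0.916). Cystatin C (Cst3) was higher with Mef2c shRNA by 0.24 ± 0.048 (adjusted p = 0.00257). Among 13 genes of mannose-6-phosphate sorting, which delivers enzymes such as cathepsins to lysosomes, the receptor Igf2r was higher with Nup210 shRNA by 0.31 (adjusted p = 8.99e-05) and lower with Mef2c shRNA by 0.18 (adjusted p = 0.00569), and Gnptab, which makes the mannose-6-phosphate mark, was lower with Mef2c shRNA by 0.35 ± 0.063 (adjusted p = 0.00107). Sort1, sortilin, was lower with Nup210 shRNA by 0.20 (adjusted p = 0.0154), a call lost with the mean of its probe sets (0.682) and without Nup210 arrays 2, 4 and 5 (0.108). Ap1m1, of the AP-1 adaptor, was higher with both shRNAs, with Nup210 shRNA by 0.19 (adjusted p = 0.0198) and with Mef2c shRNA by 0.18 (adjusted p = 0.026). The Mef2c call was lost with median centring (0.0875) and when Mef2c array 2, 4 or 6 or control array 3 was left out (0.052 to 0.0664). Among 21 genes of the MiT/TFE and mTORC1 list, Rptor was lower with both shRNAs, with Nup210 shRNA by 0.28 (adjusted p = 0.000564) and with Mef2c shRNA by 0.14 (adjusted p = 0.0482). Rheb was lower with Mef2c shRNA by 0.31 (adjusted p = 0.000252), while Tfeb differed by -0.09 and 0.05 and Tfe3 by -0.01 and 0.05, neither past the test. Mitf, of the same family, differed by -0.24 and 0.18 (adjusted p = 0.0575 and 0.164) and was lower with Nup210 than with Mef2c shRNA by 0.42 ± 0.076 (adjusted p = 0.000723). Tsc2, which restrains Rheb, was higher with Mef2c shRNA by 0.16 (adjusted p = 0.0157, and 0.0553 with median centring). In these 4 lists the counts higher and lower with Nup210 shRNA were 1 and 0, 1 and 0, 3 and 2, and 0 and 2, and with Mef2c shRNA 1 and 1, 1 and 0, 1 and 2, and 1 and 3, in the order given. Of all genes 3.05% were called higher and 5.11% lower with Nup210 shRNA, and 4.34% and 6.42% with Mef2c shRNA, and nothing is read from the counts.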

How the data were processed

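Expression was measured on 18 one-colour arrays. The authors deposited log2 values for 41345 probe sets, made with RMA and Partek per the submitters' processing notes, whose versions and settings are not stated. RMA quantile-normalizes arrays, which makes their distributions alike. No scan date or batch was known, so none was tested.

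The platform annotation named a single gene for 23521 of them, several for 1814 and none for 16010; 23328 matched RefSeq (GRCm38.p6). The brightest singly named probe set stood for each gene. A model of group means over the 18 arrays was fitted with limma (version 3.58.1, in R 4.3.3), and p-values were adjusted by Benjamini-Hochberg over 22180 genes. The fit was also run on simulated data with independent arrays and shifts planted in the Mef2c shRNA group. Effects shared by same-numbered arrays were not simulated, so that run does not check the fit for them. Atp6v0d2 and Ctsw were not tested.

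Named were all called members, per role the 2 uncalled members with the largest differences, further members given for their role, and the largest called rise and fall per related list. Members and lists were chosen with earlier results of these data known. Alternatives were a replicate block, other normalizations, a filter on dim genes, other probe set rules, priors, weights and thresholds, and leaving out arrays.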

Additional observations from a re-analysis of the deposited data

Results flagged for a closer look

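In 147 groups of 6 arrays (49 genes in 3 groups) 9 held an array far from the others by Dixon's test of the gap to the nearest array over the group's range; chance gives about 1 in 20. Control array 3 was apart in 4 genes: low for Atp6v1c1 (9.83, the others 9.92 to 9.97), and high for Atp6v1g1 (10.72, the others 10.60 to 10.62), Ctsh (6.85, the others 6.64 to 6.69) and Ctsm (3.45, the others 2.28 to 2.67). Control array 4 was low for Ctsj (3.35, the others 3.83 to 4.08). Control array 5 was high for Ctso (7.73, the others 7.53 to 7.56) and Ctss (4.57, the others 4.02 to 4.20). Mef2c shRNA array 4 was low for Cts8 (2.89, the others 3.69 to 3.97), and Nup210 shRNA array 3 was high for Ctsz (10.37, the others 10.18 to 10.24). Cts8, Ctsj, Ctsm and Ctss were below background. Without control array 6, Cts8 was called higher with Nup210 shRNA (limma adjusted p = 0.0221) and with Mef2c shRNA (0.0167), and without Mef2c shRNA array 4 it was called higher with Mef2c shRNA (0.0212).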

How the results depend on the processing

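With Nup210 shRNA against control, the count of members higher went from 2 to 0 at an adjusted p under 0.01, with only the 2 groups in the fit, without Nup210 arrays 2, 4 and 5 and without control arrays 4 and 6, to 1 with median centring and with the mean of probe sets, and ran from 0 to 3 when single arrays were left out. The count lower went from 1 to 4 with the replicate block, without dim genes and with a trended prior (with the block Atp6v0a1, Atp6v1c2 and Atp6v1d joined, at adjusted p = 0.0193, 0.0182 and 0.0107), to 0 without Nup210 arrays 2, 4 and 5, and ran from 1 to 2 over single arrays. With Mef2c shRNA against control, the count higher stayed between 4 and 6 (5 to 7 over single arrays), and the count lower went from 0 to 1 with median centring and without dim genes. Between the knockdowns the count higher went from 2 to 0 at an adjusted p under 0.01 and without Nup210 arrays 2, 4 and 5, to 1 with only the 2 groups, the mean of probe sets and without control arrays 4 and 6, and ran from 1 to 2 over single arrays; the count lower went from 8 to 4 at an adjusted p under 0.01 and without Nup210 arrays 2, 4 and 5, to 11 without dim genes, 10 with the trended prior and 9 with renewed quantile normalization, and ran from 6 to 8 over single arrays. Leaving out control arrays 4 and 6 or Nup210 arrays 2, 4 and 5 was chosen after seeing the data, and its causes were not tested. The replicate block pairs arrays by their number: correlations of same-numbered deviations ran from -0.18 to 0.17 for Nup210 with control and exceeded 0.1 in 2 of 6 pairs. They ran from -0.03 to 0.2 for Mef2c with control (over 0.1 in 1 of 6) and from -0.05 to 0.22 between the knockdowns (2 of 6). With the block Atp6v0d1 was also called higher with Nup210 shRNA (limma adjusted p = 0.045). In each comparison 4 of 6 arrays correlated best with their own number, which is a hint from the data and not the design, and the numbers were not taken to pair the arrays. The alternatives followed the called members and the largest called rise and fall per related list, and none of these differences changed direction. Other called differences of related genes were not followed. The Ctsw difference between the knockdowns, 0.01 and not tested, ran from -0.086 to 0.096 when single arrays were left out. Signal over background limits the 20 members below the receptor guide.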

Other observations

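Other lysosomal enzymes and membrane proteins were called in both directions. Of all genes 3.05% were called higher and 5.11% lower with Nup210 shRNA, and 4.34% and 6.42% with Mef2c shRNA. Nothing is read from the counts of these lists. Of 20 glycosidases and sulfatases measured, 2 were higher and 2 lower with Nup210 shRNA and 3 higher and 3 lower with Mef2c shRNA. Gaa, which degrades lysosomal glycogen, was higher with Nup210 shRNA by 0.26 (limma adjusted p = 0.00355), and the sulfatase Galns was lower by 0.25 (0.0107). Gaa was also higher with Mef2c shRNA, by 0.17 (adjusted p = 0.0432). Galc, which degrades galactosylceramide, was higher with Mef2c shRNA by 0.44 ± 0.047 (SE, adjusted p = 6.43e-06), and Gusb, beta-glucuronidase, was lower by 0.30 (adjusted p = 0.000845). Of 9 genes of lipid handling, the cholesterol exporter Npc1 was lower with Nup210 shRNA by 0.61 ± 0.06 (65.4% of control, adjusted p = 4.2e-06), with 7.86 ± 0.11 against 8.48 ± 0.087 (SD, n = 6). With Mef2c shRNA the lysosomal phospholipase Pla2g15 was higher by 0.28 (adjusted p = 0.000884, and 0.0605 with the mean of its probe sets) and the ceramidase Asah1 lower by 0.26 (0.00348). Of 7 other lysosomal proteases 3 were lower with Nup210 shRNA (Prcp, Cpq and Dpp7), and with Mef2c shRNA Tpp1 was higher by 0.21 (adjusted p = 0.000953) and Scpep1 lower by 0.20 (adjusted p = 0.00635). Of 22 membrane proteins, Laptm4b was higher with Mef2c shRNA by 0.37 ± 0.043 (adjusted p = 1.89e-05) and the cystine exporter Ctns lower by 0.17 (0.00288), and the sialic acid exporter Slc17a5 was higher with Nup210 shRNA by 0.19 (0.00494).

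Without Nup210 arrays 2, 4 and 5 the calls of Gaa, Dpp7, Galns and Slc17a5 with Nup210 shRNA were lost (adjusted p = 0.0583, 0.0559, 0.0782 and 0.0782), and the Galns call also without control arrays 4 and 6 (0.0808). Of 10 mast cell markers 9 were below background, and Mcpt1 and Mcpt4 were called higher with Nup210 shRNA. Mcpt1 was below background in all control arrays (highest 5.33) and at 6.99 ± 0.58 with Nup210 shRNA, at least 2.87-fold higher when control is held at the background guide. Mcpt4 had a mean below background in both groups. Among fibroblast markers Col3a1 was higher with Nup210 shRNA by 0.38, and Dcn was higher with both shRNAs, by 0.26 (Nup210) and 0.24 (Mef2c). Col1a1 was lower with Mef2c shRNA by 0.55, a call lost without control arrays 4 and 6 (adjusted p = 0.0692). Of the myoblast markers, with Mef2c shRNA Myf5 was higher by 0.33 (a call lost without Mef2c array 5, adjusted p = 0.05) and Cdh15 lower by 0.33.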
